A study of Mus musculus with 2 samples.

Results

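The VEGF family was followed through the cells of the mouse fracture callus, the repair tissue around a healing break. The family was taken as 10 of the 32285 genes in the count matrices: the 5 ligands Vegfa, Vegfb, Vegfc, Vegfd and Pgf, and the 5 receptors Kdr, Flt1, Flt4, Nrp1 and Nrp2. They were chosen by symbol and not by their values, though with earlier results of these data known. Each symbol matched 1 row in both matrices. The data were droplet single-cell RNA-seq (scRNA-seq) of wild-type C57BL/6J mice after a femoral fracture, with calluses digested by enzyme into single cells. Calluses were taken 10 days after fracture from 5 mice and 20 days after fracture from 5 mice, and no uninjured or mutant group is used here. The 2 libraries, MGJ and MGJ2, carried no day in their labels, and the mice within a library could not be told apart. The libraries are therefore given side by side as single samples, with no test between them and no mean or SD.

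Vascular endothelial growth factors are secreted ligands that guide the growth of blood and lymphatic vessels. VEGF-A binds the receptor tyrosine kinases VEGFR2 (Kdr), which carries most of its signal in blood endothelium, and VEGFR1 (Flt1), which binds it tightly and often acts as a trap. VEGF-B and placental growth factor (Pgf) bind VEGFR1, whereas VEGF-C and VEGF-D bind VEGFR3 (Flt4), the main receptor of lymphatic endothelium. The neuropilins Nrp1 and Nrp2 are co-receptors that also bind class 3 semaphorins. In endochondral repair, cartilage is invaded by vessels before bone replaces it, and VEGF-A from hypertrophic chondrocytes is a known signal for that invasion.

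Library MGJ held 14295 barcodes and 135304426 UMIs (unique molecular identifiers, 1 count per captured RNA molecule), of which 12947 cells were kept. Library MGJ2 held 8009 barcodes and 61130834 UMIs, of which 7568 cells were kept. Median depth was 5026 and 4952 UMIs per barcode, and 19 barcode sequences occurred in both libraries, 13 of them among kept cells. Cells were clustered without the 10 genes and named by marker genes, with the ending "-like" because names rest on markers. This gave 18 named classes of at least 30 cells in MGJ and 15 in MGJ2, while 22.2% and 13.6% of kept cells stayed unnamed. Endothelial-like cells had all 12 endothelial markers above the level in the other cells in both libraries. Their summed level was 6967 UMIs per 1000000 against 43.2 in MGJ, and 8707 against 47.5 in MGJ2. Chondrocyte-like cells likewise had all 13 chondrocyte markers above the other cells in both libraries. There were 241 and 49 endothelial-like cells and 2548 and 133 chondrocyte-like cells, and macrophage-, fibroblast- and mural-like cells were described in MGJ only, since each had fewer than 30 cells in MGJ2. Throughout, a level is a gene's UMIs per 1000000 UMIs of that class (CPM), and intervals are exact 95% intervals that cover counting error only, not differences between mice. The 3′ chemistry counts molecules of a gene as a whole, so the Vegfa splice forms and the soluble form of Flt1 were not separated.

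The stretches upstream of Vegfa, Kdr and Flt1 are shown because these genes carry the main contrasts, the ligand highest in cartilage and the receptor pair highest in endothelium. Each is the 250 bases before the first base of the RefSeq transcript start farthest upstream (build GRCm38.p6), read 5′ to 3′ on the gene's own strand. Vegfa lies at chr17:46016993-46032369 on the minus strand, and the stretch at chr17:46032378-46032627. Kdr lies at chr5:75932827-75978458 on the minus strand, and its stretch at chr5:75978456-75978705. Flt1 lies at chr5:147561604-147726011 on the minus strand, and its stretch at chr5:147726012-147726261. Capitals mark matches on either strand to the GC box (GGGCGG) and to the core of ETS factor sites (GGAAG), a family of transcription factors that is active in endothelium.
Vegfa: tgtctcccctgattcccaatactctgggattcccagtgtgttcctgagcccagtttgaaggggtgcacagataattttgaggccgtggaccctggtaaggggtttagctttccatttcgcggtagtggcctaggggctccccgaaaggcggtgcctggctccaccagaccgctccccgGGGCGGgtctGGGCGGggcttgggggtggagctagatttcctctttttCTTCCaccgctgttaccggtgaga
Kdr: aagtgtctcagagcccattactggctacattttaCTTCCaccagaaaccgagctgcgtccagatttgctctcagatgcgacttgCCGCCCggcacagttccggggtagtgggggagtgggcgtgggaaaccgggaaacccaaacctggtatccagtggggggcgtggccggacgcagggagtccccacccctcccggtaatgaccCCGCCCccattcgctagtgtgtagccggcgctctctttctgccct
Flt1: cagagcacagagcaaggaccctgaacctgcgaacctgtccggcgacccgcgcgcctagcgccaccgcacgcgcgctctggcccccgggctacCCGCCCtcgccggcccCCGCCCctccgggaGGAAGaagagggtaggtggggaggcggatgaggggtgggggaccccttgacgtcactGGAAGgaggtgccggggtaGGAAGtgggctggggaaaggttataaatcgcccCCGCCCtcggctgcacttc
Vegfa held 2 GC boxes and 1 ETS core, Kdr 2 and 1, and Flt1 3 and 3, with no overlap between matches in these 3 stretches. Of all 10 genes, 9 held a GC box, against 33% of 27025 promoter stretches of the same length, and 6 held an ETS core, against 63.7%. The core of the hypoxia response element (ACGTG) was found in 0 of the 10 stretches, against 16.5% of all stretches, which says only that these letters are not in this window. The GC content was 59.2% for Vegfa, 61.6% for Kdr and 70.4% for Flt1, with a median of 52% over all stretches. These matches are a description of the sequence and were not tested against the levels.

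Vegfa and the kinase receptors had opposite places in the callus, as seen when their levels were laid out by class. Vegfa was found in every named class of both libraries, with 30813 UMIs in MGJ and 14362 in MGJ2. Kdr, Flt1 and Flt4 were each highest in endothelial-like cells in both libraries. Vegfd was the scarcest, with 163 UMIs in MGJ and 3 in MGJ2.

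**Figure D1:**
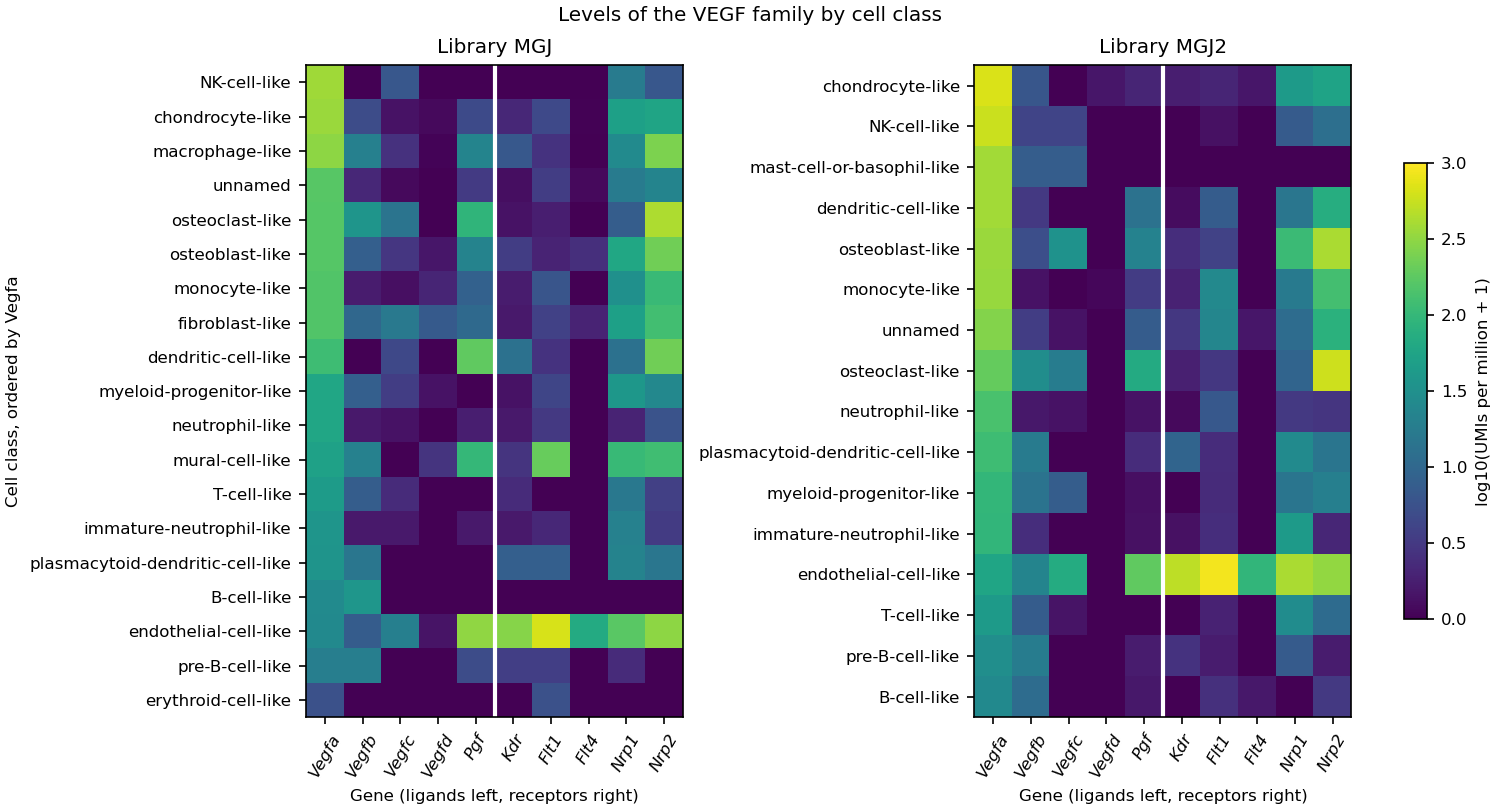
Level of the 10 genes, as log10 of CPM plus 1 (color), in each cell class (rows, ordered by Vegfa) of libraries MGJ and MGJ2, with ligands left and receptors right of the white line. Vegfa is bright in chondrocyte-like and NK-cell-like cells and dim in endothelial-like cells, where Kdr, Flt1 and Flt4 are brightest.

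Vegfa, the main ligand of vessel growth, was highest in chondrocyte-like and natural killer (NK)-cell-like cells. In MGJ, its level was 374 CPM in NK-cell-like cells (95% interval 291 to 474, 60 cells), 352 in chondrocyte-like cells (347 to 357) and 312 in macrophage-like cells (303 to 321). NK-cell-like and chondrocyte-like cells were not separated there, with an interval of 0.826 to 1.35 for their ratio, while chondrocyte-like cells were above macrophage-like cells (ratio interval 1.09 to 1.17). Osteoclast-, osteoblast-, monocyte- and fibroblast-like cells followed at 161, 161, 151 and 151, and neighbors in that order were not separated. In MGJ2, chondrocyte-like cells came first at 679 (653 to 705) and NK-cell-like cells next at 570 (542 to 598), with a ratio interval of 1.12 to 1.27. Mast-cell-or-basophil-, dendritic-cell-, osteoblast- and monocyte-like cells lay between 339 and 385 with no neighbors separated, and osteoclast-like cells at 193. Endothelial-like cells had 25.5 (19.4 to 32.8) and 57.7 (37.0 to 85.8), at place 16 of 18 and 12 of 15 classes. The cartilage collagen Col2a1 stood at 627 and 59.2 in NK-cell-like cells against 55419 and 45634 in chondrocyte-like cells. The part of free RNA in the Vegfa level of NK-cell-like cells was not tested.

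**Figure D2:**
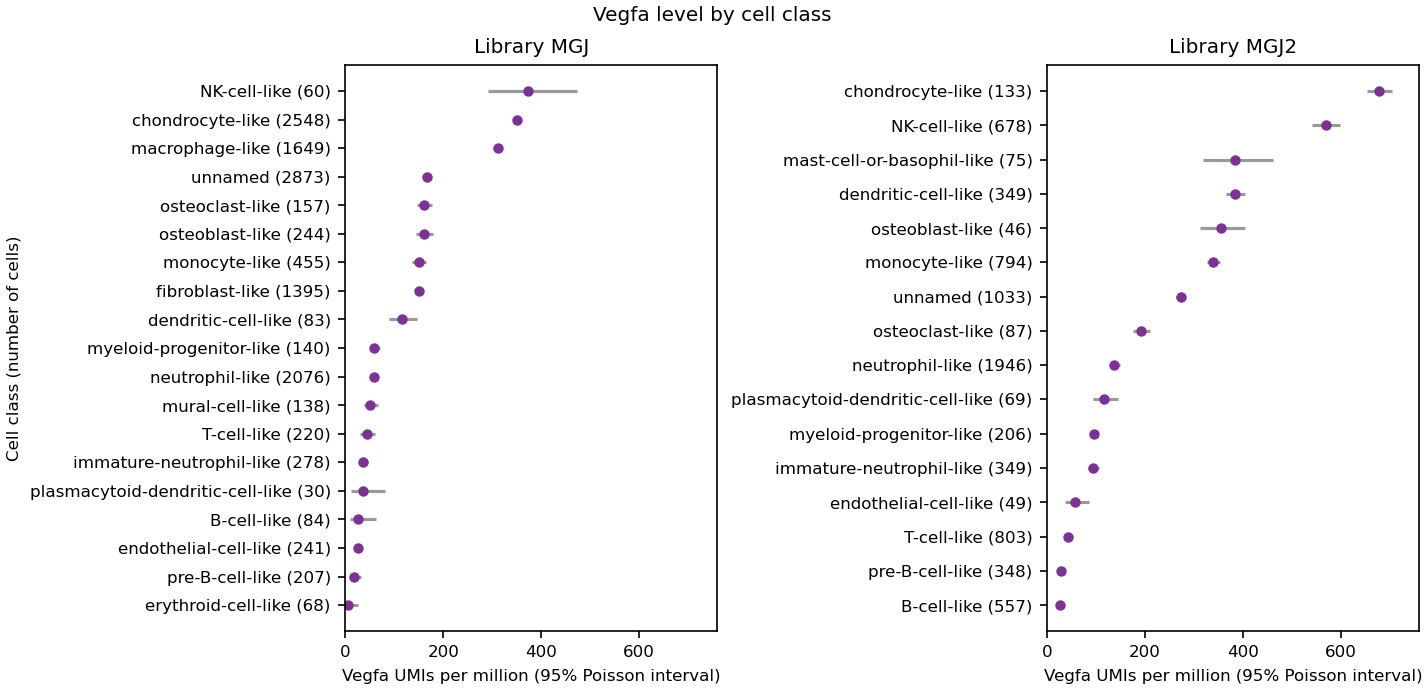
Vegfa level in CPM (points) with exact Poisson 95% intervals (lines) in each cell class of libraries MGJ and MGJ2, with the number of cells in parentheses. Chondrocyte-like cells lie at 352 and 679 and endothelial-like cells at 25.5 and 57.7.

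Compared with all other cells of the same library, chondrocyte-like cells had 2.13 times the Vegfa level in MGJ (352 against 165, ratio interval 2.08 to 2.18) and 3.12 times in MGJ2 (679 against 217, 2.99 to 3.26). They held 61.8% of all Vegfa UMIs in MGJ, where they gave 43.1% of all UMIs, and 18.5% in MGJ2, where they gave 6.76%. Macrophage-like cells held 14.6% and fibroblast-like cells 11.7% in MGJ, whereas monocyte-like cells held 17.4%, NK-cell-like cells 11.3% and dendritic-cell-like cells 9.92% in MGJ2. In MGJ, Vegfa was the only one of the 10 genes at least 2-fold higher in chondrocyte-like cells, beside 13.4% of 14641 genes with at least 50 UMIs, and 8 of the 10 were at least 2-fold lower, beside 25.9%. Vegfb was 1 of these 8 at 0.407 times, and at 0.728 times with each cell weighted equally. In MGJ2, 8 of the 10 genes reached 50 UMIs. Among these, Vegfa and Nrp1 were at least 2-fold higher, beside 19.9% of 13056 genes, and Vegfc, Pgf, Kdr and Flt1 at least 2-fold lower, beside 33%. Macrophage-like cells of MGJ had 2 genes at least 2-fold higher, Vegfb and Nrp2, beside 12.9% of genes, and 4 at least 2-fold lower, beside 35.8%.

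The share of cells with a Vegfa UMI was compared after each cell was thinned to 2000 UMIs, because chondrocyte-like cells were deep (median 21095 and 29186 UMIs). Vegfa UMIs then remained in 43.9% of chondrocyte-like cells of MGJ (42.0% to 45.9%, 44 shallower cells left out) and in 63.1% in MGJ2 (54.2% to 71.4%, 3 left out). Without thinning, the shares were 89.3% and 92.5%. NK-cell-like cells had 52.2% and 59.9%, and macrophage-like cells 37.8% in MGJ. In B-lineage cells, which were taken as cells with little Vegfa of their own, the thinned shares were 4.51% and 3.26% at median depths of 1895 and 3230 UMIs. Vegfa was therefore found in a far larger share of chondrocyte-like cells than this background.

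Within cartilage, Vegfa was higher in hypertrophic-like cells, the mature chondrocytes that make type X collagen. In MGJ, 668 hypertrophic-like cells had 413 CPM and the 1880 other chondrocyte-like cells 331, a ratio of 1.25 (1.21 to 1.29). In MGJ2, 95 hypertrophic-like cells had 760 and 38 others 478, a ratio of 1.59 (1.44 to 1.75). The second ratio depended on the clustering: it was 2.42 at resolution 0.5 and 2.55 with each library clustered alone. It was also above 2-fold, at 2.26, 2.28 and 2.19, with at least 500 genes per cell, with at most 10% mitochondrial UMIs and with the 10 genes among the clustering genes. At the settings used throughout, 0 of 10 genes in MGJ and 0 of 8 in MGJ2 were at least 2-fold higher, beside 9.01% and 15.5% of genes. In the other direction, 4 genes were at least 2-fold lower in MGJ (Vegfc, Flt4, Nrp1 and Nrp2, beside 11.7%) and 4 in MGJ2 (Pgf, Flt1, Nrp1 and Nrp2, beside 12.3%). Both neuropilins were thus lower in hypertrophic-like cells of both libraries. The Nrp1 ratio was 0.486 (0.435 to 0.542) and 0.383 (0.279 to 0.527), and the Nrp2 ratio was 0.387 (0.345 to 0.433) and 0.329 (0.248 to 0.436). The other 4 of these counts rested on few UMIs. Vegfc had 1 UMI in hypertrophic-like cells of MGJ against 20 in the others, Flt4 had 0 against 2, and Pgf and Flt1 each had 0 against 4 in MGJ2, so no fold is given for the last 3.

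Hypertrophic-like cells comprised 2 sub-clusters, and they differed in Vegfa more than hypertrophic-like cells differed from the rest. This comparison was chosen after the values were seen. Sub-cluster 4 was led by Mmp13, a collagenase of late hypertrophic cartilage, with Epas1 and Col10a1 among its leading genes. Its Vegfa level was 697 (667 to 728, 168 cells) in MGJ and 1113 (1058 to 1170, 55 cells) in MGJ2. Sub-cluster 1 was led by Ibsp, a bone matrix protein, with Col10a1 and the hedgehog ligand Ihh, and had 337 (326.5 to 349, 500 cells) and 417 (384 to 452, 40 cells). The ratios of sub-cluster 4 over 1 were 2.07 (1.95 to 2.18) and 2.67 (2.42 to 2.94). In MGJ, sub-cluster 0, which was not hypertrophic-like and was led by Penk, had 384 (375 to 393, 870 cells), above sub-cluster 1, with a ratio of 0.879 (0.844 to 0.914) for 1 over 0. The remaining chondrocyte-like sub-clusters of that library lay between 218 and 337. Sub-cluster 5 (165 cells, Vegfa 343) was led by neutrophil genes such as S100a8 and was set aside as unnamed. Sub-cluster 4 stood above each other sub-cluster of MGJ.

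**Figure D3:**
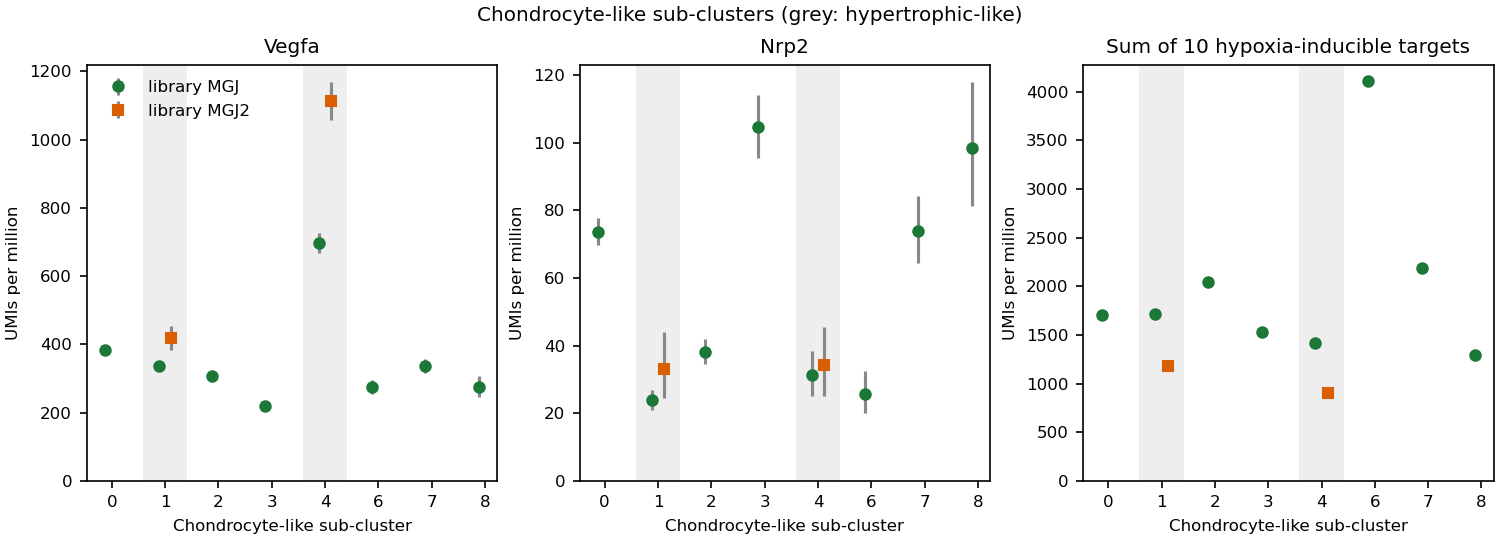
Level in CPM of Vegfa (left), Nrp2 (middle) and the sum of 10 hypoxia-inducible targets (right) in chondrocyte-like sub-clusters of MGJ (circles) and MGJ2 (squares); lines are exact Poisson 95% intervals in the first 2 panels, and gray bands mark the hypertrophic-like sub-clusters 1 and 4. Vegfa peaks in sub-cluster 4 at 697 and 1113, while the hypoxia sum peaks in sub-cluster 6 at 4110.

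Genes known to raise or respond to the hypoxia signal did not share one order with Vegfa across these sub-clusters. Epas1, which encodes the hypoxia-inducible factor HIF-2α, was at 97.5 in sub-cluster 4 and 19.6 in sub-cluster 1 of MGJ, a ratio of 4.99 (4.16 to 5.99), and at 174 and 24.0 in MGJ2, a ratio of 7.23 (5.03 to 10.7). Hif1a, which encodes HIF-1α, had ratios of 0.996 (0.937 to 1.06) and 1.33 (1.19 to 1.49). Mmp13, a naming marker, was 20.8 and 18.9 times as high. The sum of 10 hypoxia-inducible targets (glucose transport, glycolysis and related genes) was 1417 in sub-cluster 4 and 1714 in sub-cluster 1 of MGJ, and 899 and 1180 in MGJ2. It was highest, at 4110, in sub-cluster 6 of MGJ, where Vegfa was at 274. The sum did not stand for each target. For sub-cluster 4 over 1, Slc2a1 had ratios of 0.892 (0.779 to 1.02) in MGJ and 1.45 (1.16 to 1.83) in MGJ2. Adm had 1.12 (0.890 to 1.39) and 2.19 (1.18 to 4.26), and the other targets were not compared singly there. Sub-cluster 4 was thus high in Vegfa and Epas1 without the highest hypoxia sum, and what links these genes was not tested. Nrp1 was 2.32 times (1.87 to 2.87) and 1.92 times (1.19 to 3.15) as high in sub-cluster 4 as in sub-cluster 1, whereas the Nrp2 ratios were 1.32 (1.02 to 1.68) and 1.03 (0.674 to 1.58). Low neuropilin levels were not particular to these sub-clusters in MGJ. Nrp2 was at 25.6 in sub-cluster 6, against 31.4 in sub-cluster 4 and 23.8 in sub-cluster 1. Nrp1 was at 33.9 in sub-cluster 2, below the 50.2 of sub-cluster 4. Sub-clusters 0 and 3 were higher, with Nrp1 at 72.6 and 64.3 and Nrp2 at 73.6 and 105.

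Relative to the other cells of the same library, genes whose products hold VEGF in the matrix or free it were mixed in MGJ and mostly higher in MGJ2. Those other cells differed in make-up. The fibroblast-like clusters held 882 and 513 cells in MGJ but 10 and 0 in MGJ2. The mural-like cluster held 138 and 9 cells, and the osteoblast-like cluster 244 and 46. The part of this make-up in the ratios was not tested, so they do not show a difference in cartilage between the libraries. Of 10 genes for matrix binding and release, 5 were at least 2-fold higher in chondrocyte-like cells of MGJ and 3 lower (Sdc1, Mmp9 and Mmp14), beside 13.4% and 25.9% of all genes. In MGJ2, 9 were higher and 1 lower (Mmp9), beside 19.9% and 33%. The list had median log2 ratios of 0.61 and 2.90 (10 added to each level) against −0.06 and −0.14 over all genes. The heparan sulfate carriers Hspg2 (perlecan) and Sdc4 (syndecan-4) were 3.20 and 4.37 times as high in MGJ, and 38.4 and 8.76 times in MGJ2. Ccn2, a matricellular protein that binds VEGF, was 7.09 and 77.2 times as high. Mmp9, a gelatinase that frees VEGF from matrix and is made by osteoclasts and neutrophils, was lower in both, at 0.0483 and 0.00892 times the level in other cells. Within cartilage of MGJ, Mmp9 was at 47.4 in sub-cluster 4 and 3.62 in sub-cluster 1, a ratio of 13.1 (9.12 to 19.2). In MGJ2 these sub-clusters had 5 and 0 Mmp9 UMIs. Of the hypoxia-inducible targets, 3 of 10 were at least 2-fold higher and 2 lower (Ankrd37 and Ndrg1) in MGJ, and 5 of 9 higher and 1 lower (Ndrg1) in MGJ2, beside the same shares of all genes, with median log2 ratios of 0.51 and 0.90. Examples were Bnip3, a mitophagy receptor, at 3.02 and 17.1 times, and P4ha1, a subunit of the collagen prolyl hydroxylase, at 2.50 and 6.34 times. Among hypertrophic-like cells, Epas1 was 9.09 and 54.7 times as high as in other chondrocyte-like cells, and Adm (adrenomedullin) 8.03 and 10.1 times, with 2 UMIs of each gene in the other cells of MGJ2. The median log2 ratio of the hypoxia targets was −0.30 and −0.50 there. Adm was the 1 target at least 2-fold higher in each library, of 10 and 9 measured, beside 9.01% and 15.5% of genes. Car9 and Ndrg1 were at least 2-fold lower in MGJ and Pdk1 in MGJ2, beside 11.7% and 12.3%. Of 8 hypoxia-inducible factor regulators, Epas1 was higher and Egln3 lower in MGJ. In MGJ2, Epas1 and Hif1an were higher and 0 were lower.

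Pgf, the placental growth factor, had its highest level in endothelial-like cells and was low in cartilage. Its level in endothelial-like cells was 321 CPM (298 to 345) in MGJ and 185 (146 to 231) in MGJ2, 31.0 times (28.3 to 33.9) and 28.4 times (21.9 to 36.4) that of the other cells. Endothelial-like cells were separated from the next class in both libraries, with ratio intervals of 1.43 to 2.17 over dendritic-cell-like and 2.07 to 3.64 over osteoclast-like cells. In MGJ, dendritic-cell-like cells had 183 (150 to 221), mural-like cells 97.4 and osteoclast-like cells 90.2. Dendritic-cell-like cells of MGJ2 had 12.7, and osteoclast-like cells 67.1. Osteoclast-like cells held 35.7% of the Pgf UMIs of MGJ2 and endothelial-like cells 17.1%, whereas in MGJ the shares were 11.2% and 37.2%. Chondrocyte-like cells had 3.71 and 1.02, which were 0.145 and 0.123 times the level of the other cells. They were not the lowest class, since neutrophil-like cells had 0.789 and 0.388.

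Vegfb, a VEGFR1 ligand of metabolically active tissue, was low and widely spread. Osteoclast-like cells had 36.0 (29.0 to 44.2) and 28.8 (22.4 to 36.4), while B-cell-like cells of MGJ had 37.2 from 7 UMIs. Macrophage- and mural-like cells followed at 19.5 and 20.0, and chondrocyte-like cells had 3.99 and 5.37. Most neighbors in this order were not separated, and the osteoclast-like level was separated from the next class in MGJ (ratio interval 1.12 to 3.01) but not in MGJ2 (0.661 to 3.03).

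The ligands of VEGFR3 were low. Their sources could not be compared between the libraries, since fibroblast-like cells were described in MGJ only. Vegfc was at 18.7 (13.6 to 25.1) in endothelial-like and 15.5 (14.0 to 17.2) in fibroblast-like cells of MGJ, which were not separated, and fibroblast-like cells held 72.2% of its 514 UMIs. In MGJ2, endothelial-like cells had 69.7 (46.7 to 100.1), osteoblast-like cells 33.1 (20.96 to 49.6) and osteoclast-like cells 17.1 (12.3 to 23.2). The first was separated from the second and the second from the third, but osteoclast-like cells were not separated from the next class, with a ratio interval of 0.663 to 21.8. By share of the 156 Vegfc UMIs in MGJ2, osteoclast-like cells held 26.3% and myeloid-progenitor-like cells 25.0% (a level of 6.61), against 18.6% in endothelial-like and 14.7% in osteoblast-like cells. Chondrocyte-like cells had 0.388 in MGJ and 0 UMIs in MGJ2, which allows a level of up to 0.768. Vegfd was nearly confined to fibroblast-like cells in MGJ, with 143 of 163 UMIs (87.7%) and a level of 5.99 (5.05 to 7.06). Within them, the cluster led by Cxcl5 and Ereg had 11.9 (9.74 to 14.3) and the cluster led by the tenocyte gene Tnmd 2.26 (1.56 to 3.18). With 3 UMIs, Vegfd was not measurable by class in MGJ2.

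**Figure D4:**
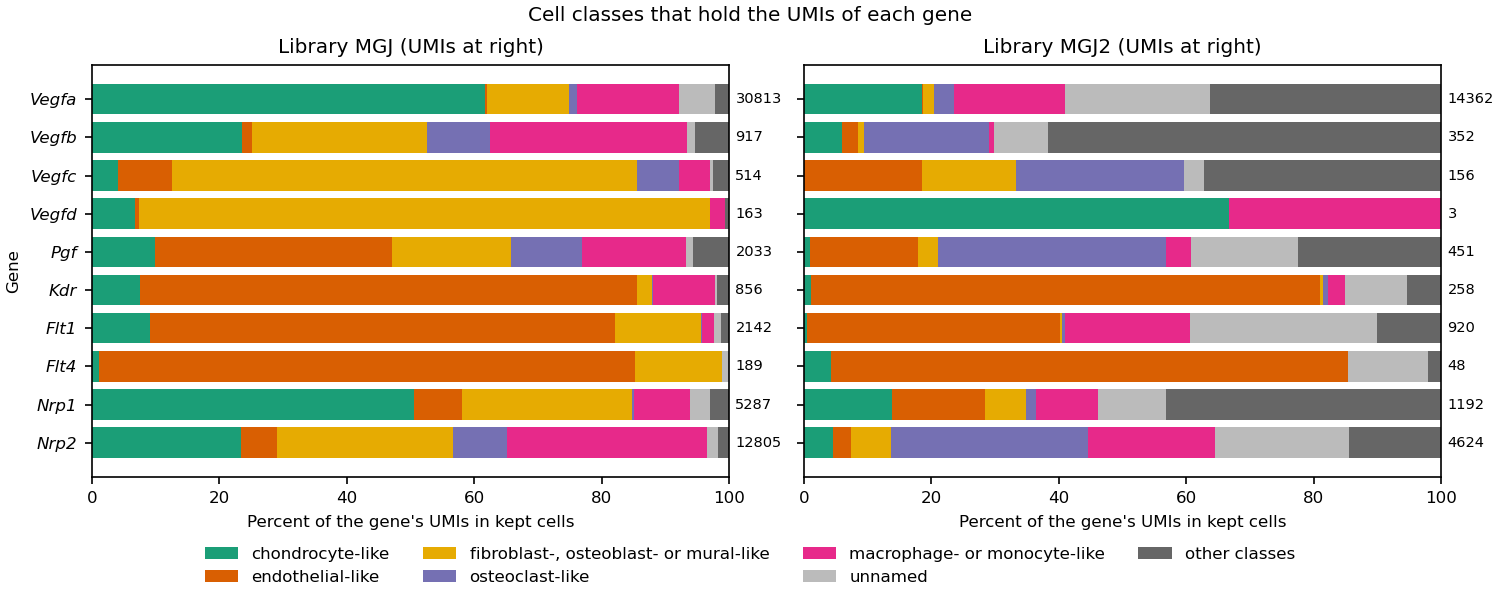
Percent of each gene's UMIs in kept cells (horizontal axis) held by 7 groups of classes (colors) in libraries MGJ and MGJ2, with the gene's total UMIs at the right of each bar. Chondrocyte-like cells hold 61.8% of Vegfa in MGJ, and endothelial-like cells hold 78.0% and 79.8% of Kdr; the Vegfd bar of MGJ2 rests on 3 UMIs.

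The 3 receptor tyrosine kinases were each highest in endothelial-like cells, but not all of their UMIs lay there. Kdr (VEGFR2) stood at 284 CPM (262 to 306) in endothelial-like cells of MGJ and 495 (430 to 568) in MGJ2. These were 186 times (158 to 220) and 546.5 times (401 to 756) the level in other cells, and held 78.0% and 79.8% of Kdr UMIs. The ratio in MGJ2 rested on 52 UMIs in other cells and was 911 with each cell weighted equally and 834 with unnamed cells left out. The next named classes were dendritic-cell-like cells at 12.1 from 7 UMIs in MGJ, and plasmacytoid-dendritic-cell-like cells at 8.24 from 6 UMIs in MGJ2. Flt1 (VEGFR1) had 664 (632 to 698) and 880 (792 to 975) in endothelial-like cells, 142 times (129 to 156) and 91.1 times (79.6 to 104) the other cells. In MGJ2 that ratio was 141 with unnamed cells left out. Endothelial-like cells held 1564 Flt1 UMIs of MGJ against 578 in other cells. In MGJ2 they held 366 against 554, so most Flt1 UMIs of that library lay in other cells. Flt4 (VEGFR3) had 67.5 (57.4 to 78.8) and 93.8 (66.7 to 128), with 84.1% and 81.2% of its UMIs in endothelial-like cells. Its ratio in MGJ, 277 (187 to 424), fell to 44.6 when each cell was named by its highest marker score and to 91.7 with each cell weighted equally. In MGJ2, with 9 UMIs in other cells, the Flt4 ratio was 598 (285 to 1403). It was 1493 with each cell weighted equally, 1421 with unnamed cells left out, 1225 with doublet calls kept and 1025 with the 10 genes among the clustering genes.

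Of the 10 genes, 7 were at least 2-fold higher in endothelial-like cells of MGJ (Vegfc, Pgf and the 5 receptors), beside 20.7% of genes. In MGJ2, 7 of the 8 genes with at least 50 UMIs were (Vegfb, Vegfc, Pgf, Kdr, Flt1, Nrp1 and Nrp2), beside 22.6%. The UMIs of endothelial-like cells count toward these 50. Flt4 passed in MGJ only through them, with 159 UMIs there and 30 in other cells, so the filter favored its place among the higher genes. At least 2-fold lower were Vegfa and Vegfd in MGJ, beside 23.6% of genes, and Vegfa in MGJ2, beside 26.8%. Vegfa in endothelial-like cells was 0.102 times (0.0779 to 0.131) and 0.231 times (0.148 to 0.344) that of the other cells. The class with the highest levels of Kdr, Flt1 and Flt4 thus ranked low in Vegfa.

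After thinning to 2000 UMIs, a Flt1 UMI was found in 61.8% of 186 endothelial-like cells in MGJ (54.4% to 68.8%) and in 75.8% of 33 in MGJ2 (57.7% to 88.9%). For Kdr the shares were 38.7% (31.7% to 46.1%) and 63.6% (45.1% to 79.6%), and for Flt4 10.2% and 21.2%. There were 55 and 16 shallower cells left out, and without thinning the Kdr shares were 64.3% and 77.6%. In B-lineage cells, the thinned share of each of the 5 receptors was between 0% and 0.752%. Of the endothelial-like cells, 48.4% in MGJ had UMIs of 1 of the 3 kinases, 28.0% of 2 and 2.15% of all 3, whereas MGJ2 had 21.2%, 51.5% and 12.1%. Flt1 UMIs were found in 50 of 72 cells with Kdr and 65 of 114 without it in MGJ, shares of 69.4% (57.5% to 79.8%) and 57.0% (47.4% to 66.3%) with overlapping intervals. Nrp1 UMIs were found in 39 of 115 cells with Flt1 (33.9%, 25.3% to 43.3%) and 10 of 71 without it (14.1%, 6.97% to 24.4%), the intervals of which do not overlap. Cells with Kdr had Nrp1 in 27 of 72 (37.5%) against 22 of 114 (19.3%), with overlapping intervals. In MGJ2, Nrp1 UMIs were found in 14 of 25 cells with Flt1 (34.9% to 75.6%) and 1 of 8 without it (0.316% to 52.7%). These intervals overlap.

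Flt1 reached beyond endothelium. In MGJ, mural-like cells, the pericytes and smooth muscle cells around vessels, had a Flt1 level of 201 (176 to 229) and a thinned share of 36.9% (28.3% to 46.1%), against 0.820% for Kdr. Endothelial-like cells had 3.30 times (2.87 to 3.82) as much Flt1 as mural-like cells, and 156 times (43.0 to 1289) as much Kdr, of which mural-like cells had 2 UMIs. For the endothelial markers as a whole, mural-like cells had a summed level of 346 against 6967 in endothelial-like cells, with Ptprb and Erg at 0. The mural marker list summed to 16439 in mural-like cells and to 1282 and 1029 in endothelial-like cells of the 2 libraries, and the part of mixed barcodes in these values was not tested. Flt1 in mural-like cells was therefore a larger part of its endothelial level than Kdr or the summed markers were. Pgf was 3.30 times (2.69 to 4.07) as high in endothelial-like as in mural-like cells, and Vegfa 0.4998 times (0.341 to 0.733). In MGJ2, monocyte-like cells had a Flt1 level of 24.6 (21.1 to 28.4) and 19.7% of its UMIs, and unnamed cells held 29.3%. Within the unnamed cells, a cluster of 143 cells led by Cd36, Ear2 and Ace, genes known from non-classical monocytes, had 94.4 (72.7 to 121). Monocyte-like cells of MGJ had 5.18 (2.90 to 8.54).

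The neuropilins were spread over more classes than the kinases. Nrp1, the co-receptor of VEGFR2, was highest in endothelial-like cells, at 170 (154 to 187) and 418 (358 to 485), 4.28 times (3.86 to 4.74) and 23.6 times (20.0 to 27.7) the other cells. Mural-like cells had 104 in MGJ, and osteoblast-like cells 59.5 and 111. Chondrocyte-like cells had 49.4 (47.6 to 51.3) and 42.0 (35.8 to 48.9) and held 50.6% of Nrp1 UMIs in MGJ. Nrp2, the co-receptor of VEGFR3, was highest not in endothelium but in osteoclast-like cells, at 425 (400 to 452) and 596 (566 to 628). They were separated from the next class in both libraries, with ratio intervals of 1.26 to 1.52 over endothelial-like and 1.26 to 1.62 over osteoblast-like cells. Endothelial-like cells had 307 (285 to 331) and 322 (270 to 382), 3.13 times (2.90 to 3.38) and 4.12 times (3.44 to 4.89) the other cells, a ratio that became 9.04 in MGJ2 with each cell weighted equally. Macrophage-like cells had 257 (249 to 265) and held 29.0% of Nrp2 UMIs in MGJ. Osteoblast-like cells had 224 and 418, and chondrocyte-like cells 55.5 and 53.5.

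Lymphatic markers split the receptors of endothelial-like cells in MGJ. The class had all 5 lymphatic markers above the other cells, with a summed level of 1398, most of it the chemokine Ccl21a at 1210. In MGJ2 the summed level was 31.3, with Ccl21a and Reln at 0. Cells with UMIs of at least 2 of the 5 markers numbered 18 of 241 in MGJ and 0 of 49 in MGJ2, and this division was made after the values were seen. Flt4 was at 320 (250.4 to 403) in the 18 cells and 40.8 (32.7 to 50.4) in the other 223, a ratio of 7.84 (5.65 to 10.8). Nrp2 was at 551 and 282, a ratio of 1.96 (1.60 to 2.38). In the other direction, Flt1 was at 173 and 716, a ratio of 0.242 (0.172 to 0.333), and Nrp1 at 31.1 and 184, a ratio of 0.169 (0.0674 to 0.351). Kdr was at 258 and 286 and was not separated (ratio 0.900, 0.676 to 1.18), and neither was Pgf at 316 and 322. The pair of receptors known from lymphatic vessels was thus higher, and the pair known from blood vessels lower, in cells with lymphatic markers. Without those 18 cells the Kdr, Flt1 and Flt4 ratios to all other cells were 188, 153 and 168. The 49 endothelial-like cells of MGJ2 still had Flt4 at 93.8, with none of them past the marker division.

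**Figure D5:**
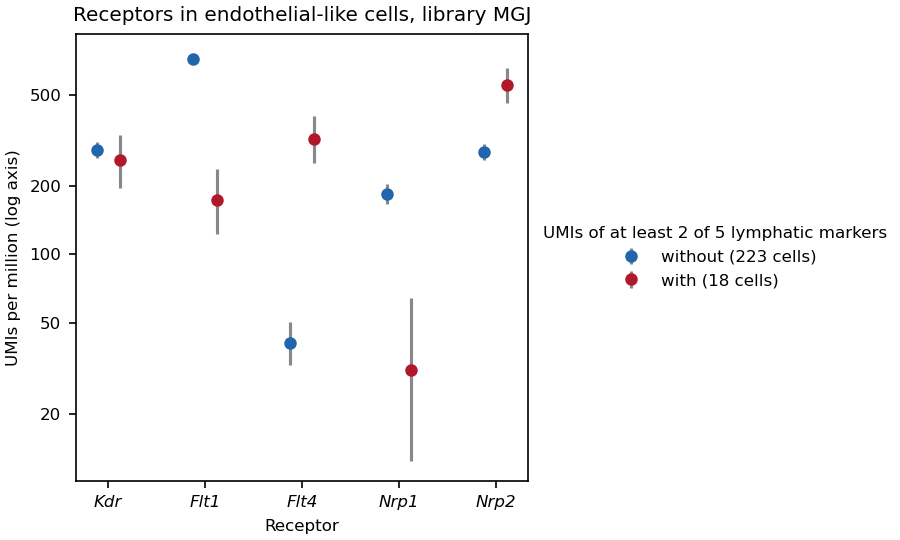
Level in CPM (log axis) of the 5 receptors in endothelial-like cells of MGJ with UMIs of at least 2 of 5 lymphatic markers (red, 18 cells) and without (blue, 223 cells); lines are exact Poisson 95% intervals. Flt4 lies at 320 with the markers and 40.8 without, and Flt1 at 173 with and 716 without.

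Other genes of vessel signalling were examined in endothelial-like cells through lists of pathway genes, and their counts stand beside 20.7% of all genes higher and 23.6% lower in MGJ, and 22.6% and 26.8% in MGJ2. A listed gene scarce in other cells could be measured through its endothelial-like UMIs alone, which favors calls of higher. Of the Notch and tip-cell genes, 7 of 9 were at least 2-fold higher in MGJ and 1 lower (Hey2), and 8 of 8 measured were higher in MGJ2, with median log2 ratios of 2.68 and 3.53 (10 added to each level) against 0.08 and 0.03 over all genes. Dll4, the Notch ligand of tip cells, was 155 and 434 times as high. Esm1, a VEGF-induced tip-cell gene, was 90.9 and 125 times, and Aplnr, the apelin receptor, 673 and 769 times as high. In the angiopoietin and Tie group, 3 of 5 and 3 of 4 were higher and 2 and 0 lower, with medians of 3.33 and 3.26. These were the receptors Tie1 (633 and 441 times) and Tek (360 and 700 times) and the ligand Angpt2 (43.1 and 16.2 times), while Angpt1, the mural ligand of Tek, was at 0.313 and 0.826 times.

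Signal transduction genes downstream of VEGFR2 were higher for 6 of 9 in MGJ and 5 of 9 in MGJ2, and Sh2d2a and Src were at least 2-fold lower in both, with medians of 1.05 and 1.36. Nos3, the endothelial nitric oxide synthase, was 169 and 33.5 times as high, and Plcg1, the phospholipase recruited by VEGFR2, 7.10 and 7.97 times. Among partners of neuropilins, 3 of 5 and 3 of 4 plexins were higher and 1 (Plxna3) and 0 lower, with Plxnd1 at 12.4 and 11.7 times. Of the class 3 semaphorins, the rival ligands of neuropilins, as many were lower as higher, 3 and 3 of 7 in MGJ and 2 and 2 of 4 in MGJ2, with median log2 ratios of −0.28 and 1.81. Sema3b, Sema3c and Sema3e were lower in MGJ and Sema3c and Sema3d in MGJ2, while Sema3g reached 262 and 2621 times and Sema3f 120 and 731 times, each with 8 to 148 UMIs in other cells. Of 8 hypoxia-inducible factor regulators, Epas1 was the 1 gene at least 2-fold higher in endothelial-like cells of both libraries, at 14.1 and 81.9 times. The matrix binding list had 0 of 10 genes higher and 7 lower in MGJ. It was mixed in MGJ2, with 3 higher (Hspg2, Sdc2 and Mmp14) and 4 lower. Here too, the other cells of MGJ2 held few fibroblast- and mural-like cells. Endothelial-like cells were low in Sdc4 (0.0374 and 0.0996 times) and Ccn2 (0.236 and 0.429 times), which were high in cartilage. Hspg2, also high in cartilage, was not among the lower genes in either library.

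The genes whose levels by class were most like those of Vegfa and Kdr were found over the 18 and 15 named classes among 11471 genes, by the smaller of the 2 Pearson correlations of log2(level + 10). For Vegfa they were Anxa2 (0.714 and 0.709), Pak1, Fam129b, Sgk1 and Hk2 (0.756 and 0.645), the last a hexokinase of glycolysis. For Kdr they were Ptprb (0.979 and 0.989), Podxl, Myct1, Cdh5 and Plvap, of which Ptprb, Cdh5 and Plvap are naming markers of the endothelial class. Of the family, Vegfd and Flt4 had too few UMIs to be compared. Among the others, Flt1 was the closest to Kdr, at place 68 of the order, followed by Pgf at 126, while Nrp2 was the closest to Vegfa at place 693. Classes of 1 library share its depth and its free RNA, so these correlations are descriptions.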

How the data were processed

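The data were 10x Genomics 3′ (version 3) scRNA-seq of callus from 2 libraries. The deposited values are UMI counts per gene and barcode, filtered to called cells and not normalized, and the file headers name Cell Ranger 4.0.0. The submitters' processing notes name GRCm38, Cell Ranger and Seurat, and the annotation release is not given in the sources used here. Gene positions are from GENCODE M21 (GRCm38), in which 99.6% of gene identifiers were found. Neither library has a day in its labels, so no groups were formed and no test, p-value or SD was computed. The 10 genes, the pathway lists and the marker lists were chosen with earlier results of these data known.

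Barcodes with fewer than 200 genes (371 in MGJ, 70 in MGJ2) or more than 20% mitochondrial UMIs (464 and 133) were removed. Doublets were called with Scrublet in scanpy 1.11.5 at a score of 0.25 in both libraries, because the automatic threshold called 0 in MGJ. This marked 513 (3.81%) and 238 (3.05%) barcodes, fewer than the expected 10.8% and 6.24%, so doublets remain. Both libraries were clustered together on 2000 variable genes without the 10 family genes (30 principal components, 15 neighbors, Leiden resolution 1, sub-clusters 0.5). Clusters of at least 20 cells were named from 27 marker lists by a minimum score of 1 and at least 3 detected markers, and left unnamed where leading genes went against the name or depth was low. The fixed naming rule covered the 10 genes, 63 pathway genes, markers and the 5 genes most like Vegfa and Kdr. Other genes, the leading genes of clusters among them, were named after their values were seen.

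Levels have exact Poisson, shares exact Clopper-Pearson and ratios exact conditional binomial 95% intervals. The ratio intervals were checked on simulated counts that varied by counting error only. That check cannot speak for spread between cells or mice, and the level and share intervals were not simulated. A count of 0 was given a limit of 3 counts. The share of genes past 2-fold covers genes with at least 50 UMIs in the library. These UMIs include those of the class described, so a gene scarce elsewhere can pass through that class. Tools were Python 3.11.15, numpy 2.4.6, scipy 1.17.1, pandas 2.3.3, scikit-learn 1.9.0, leidenalg 0.10.2, igraph 0.11.9 and matplotlib 3.10.9.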

Additional observations from a re-analysis of the deposited data

Results flagged for a closer look

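The family was also found in barcodes outside the comparisons, those removed for few genes, mitochondrial UMIs or doublet calls. In MGJ, 1348 removed barcodes had a summed level of 243 UMIs per 1000000 (CPM) for the 5 ligands (233 to 253) and 188 for the 5 receptors (180 to 197), against 274 and 169 in kept cells. In MGJ2, 441 removed barcodes had 237 (221 to 254.5) and 121 (110 to 133.5), against 265 and 122 in kept cells. Each sum was above the limit for a gene with no UMI, 0.308 and 0.901 in the 2 libraries, and the classes of these barcodes were not analysed here.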

How the results depend on the processing

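Of 397 values recomputed under alternatives, 314 moved by less than their counting interval and 83 moved by more. No ratio whose interval excluded 1 changed direction. Of 389 ratios, 6 crossed 1, for 4 results whose intervals included 1: Vegfb in hypertrophic-like cells of MGJ2 (1.29, then 0.841 and 0.980), Pgf (0.830, then 1.05 and 1.04) and Vegfd (1.69, then 0.434) in those of MGJ, and Vegfb in chondrocyte-like cells of MGJ2 (0.875, then 1.09). For the 4 main ratios in both libraries, 69 of 104 values moved by less than that interval and 35 by more. The Vegfa ratio of hypertrophic-like to other chondrocyte-like cells (1.25 in MGJ, 1.59 in MGJ2) moved most often. It became 1.30 and 2.26 with at least 500 genes per cell, 1.33 and 2.28 with at most 10% mitochondrial UMIs, 1.19 and 1.28 with doublet calls kept, 1.14 and 1.43 with each cell named by its highest marker score, 1.34 and 1.87 with each cell weighted equally, and 1.38 and 2.42 at resolution 0.5. In MGJ2 alone it moved to 2.55 with the libraries clustered separately, 2.19 with the 10 genes among the clustering genes, 1.90 at resolution 2 and 1.43 with set-aside sub-clusters kept. The Vegfa ratio of chondrocyte-like to other cells (2.13 and 3.12) became 2.001 and 2.49 by highest marker score, 2.67 and 3.39 with equal weights, and 2.27 and 2.82 without the 50 most abundant genes. In MGJ it was 2.02 with at most 10% mitochondrial UMIs and 2.25 with set-aside sub-clusters kept, and in MGJ2 3.29 with doublet calls and 3.37 without unnamed cells. The Kdr ratio was 136 in MGJ by highest marker score, and in MGJ2 911 with equal weights and 834 without unnamed cells. The Flt1 ratio in MGJ was 124 with doublet calls kept, 124 with libraries clustered separately and 124 without the 50 most abundant genes. In MGJ2 it was 70.3 with equal weights, 64.7 with the 10 genes among the clustering genes and 141 without unnamed cells. The causes were not tested.

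Clustered alone, MGJ2 had no cluster named endothelial-like, so that setting gave no receptor value there. Leaving out endothelial-like cells with lymphatic markers, or barcodes found in both libraries, was added after seeing the data and moved none of the main ratios past their intervals. No paired analysis was possible because each library is 1 sample with no group. With 49 endothelial-like and 133 chondrocyte-like cells, MGJ2 limits the precision of rare genes such as Flt4 and Vegfd, and 1 library per time point at most leaves the spread between mice unknown.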
